A study of Drosophila melanogaster with 19 samples.

Results

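Armitage (Armi) is an RNA helicase that works with the protein Yb in the somatic cells of the Drosophila ovary. There, long single-stranded RNAs are bound by Armi and Yb, cut by the endonuclease Zucchini and loaded as PIWI-interacting RNAs (piRNAs) onto Piwi, which silences transposons in the nucleus. Some messenger RNAs, traffic jam (tj) foremost, also enter this route and give genic piRNAs. The Myc-tagged Armi carrying the substitution D862A, aspartate to alanine, was compared here with wild-type (WT) Myc-Armi by the RNA that each protein was crosslinked to.

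Both proteins were expressed in ovarian somatic cells (OSC), a line of follicle cell origin, and their RNA was read by FAST-iCLIP, in which UV crosslinks protein to RNA, RNase T1 trims it and the fragment that stays on the purified protein is sequenced. The comparison used 4 of the 19 libraries of the series, 2 of WT and 2 of D862A per the labels. A second substitution, R949A (arginine to alanine, 2 libraries), and endogenous Armi in untreated cells (2 libraries), after control knockdown (KD) against EGFP (2 libraries) and after Yb KD (2 libraries) are set beside it. All Myc-Armi cells had been transfected, and no label says whether they still held endogenous Armi. The deposited table joins the 2 libraries of each Myc-Armi condition in 1 column, so there is no spread between replicates and no difference between WT and D862A was tested. Every interval below is a 95% interval that covers counting error only.

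Values are RPM, reads per M (mega) of all reads of a column, given per transcript. Of 12013 transcripts, 4585 averaged 5 RPM or more over WT and D862A. Nearest to that limit, drd was inside with a mean of 5.00 RPM and CG8207 was outside with the same rounded mean. The implied totals of reads were 2.54 M in WT, 6.27 M in D862A and 5.70 M in R949A. The median transcript rested on 31 reads in WT and on 256 in D862A, and 481 had only 1 to 3 reads in WT. Of the 4585, 1415 were under 5 RPM in WT and passed through D862A alone, so these had to be higher in D862A, while 89 passed through WT alone. Where this bears on a group, its median is also given for transcripts with 5 RPM or more in untreated Armi iCLIP (2926 transcripts, relative to their own median), a limit that uses neither column and was chosen after the data were seen. The 6 follicle cell markers (tj, zfh1, Fas3, bab1, bab2 and ct) all had reads and summed to 4083 RPM in WT and 5678 RPM in D862A. The matched germline markers, 6 of 7, summed to 23.6 and 10.8 RPM, with osk and nos at 0 in both columns. The matched hemocyte markers, 4 of 5, summed to 18.9 and 70.6 RPM, with He at 0 in both. The higher hemocyte sum in D862A rests on srp, with 13.0 RPM in WT and 69.3 RPM in D862A. Of the 4 hemocyte markers, 1 was at 0 in WT and 2 were at 0 in D862A.

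The RNA on D862A had another makeup than that on WT. Relative to the bulk of transcripts, messages that give many piRNAs stood lower on D862A. Messages of cytosolic ribosomal proteins, proteasome subunits and chaperones stood higher, as did transcripts from short loci in general. The ribosomal protein and proteasome lists are of short median locus span. Of all reads in a column, those on the 12013 transcripts were 33.2% in WT, 63.3% in D862A and 63.8% in R949A. Most tested transcripts had more RPM in each substituted protein than in WT. As deposited, 3977 of the 4585 transcripts (86.7%) were higher in D862A and 608 were lower. The median transcript was 3.31-fold higher, a log2 ratio of 1.73 on the log2(RPM + 1) scale used for all log2 ratios here. Ratios below are given as deposited and also relative to this table median, as relative log2 ratios. On the relative scale, 1224 transcripts (26.7%) were more than 2-fold higher in D862A and 1208 (26.3%) more than 2-fold lower, while 374 (8.16%) were more than 4-fold higher and 445 (9.71%) more than 4-fold lower. As deposited, 3101 (67.6%) were more than 2-fold higher and 194 (4.23%) more than 2-fold lower. More of a message in the cells and more binding per message cannot be told apart in any of these values.

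The relative ratios had an SD across transcripts of 1.52. The same SD was 0.24 between the 2 untreated Armi libraries, where 2 of 2926 transcripts (0.0684%) were more than 2-fold higher in 1 library and 0 (0%) lower. These libraries are of another condition and lend no error to the Myc-Armi columns. Counting error alone left the interval of 1720 transcripts wholly above the table median and that of 1731 wholly below it.

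**Figure D1:**
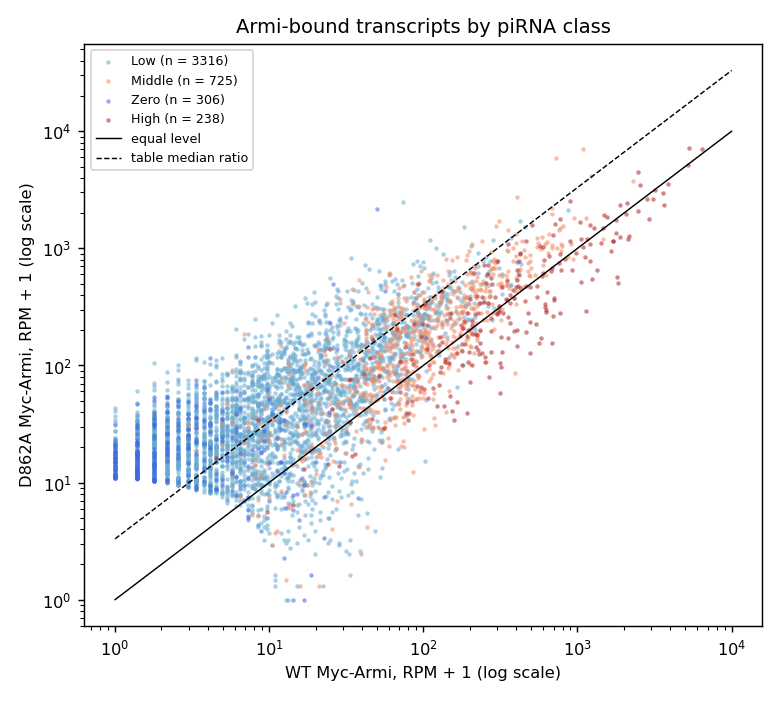
Level of each of the 4585 transcripts in WT (x axis) and D862A Myc-Armi (y axis), in RPM + 1 on log scales, coloured by the authors' piRNA class. The solid line marks equal levels and the dashed line the table median ratio of 3.31; High transcripts lie near the solid line, at a class median of 0.93-fold, and most others above it.

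The authors sorted transcripts by the piRNA they give in untreated cells into the classes High, Middle, Low and Zero, a sorting that used no Myc-Armi library. All 238 High transcripts passed the limit of 5 RPM. Their summed signal was 150121 RPM in WT, 148504 RPM in D862A and 153365 RPM in R949A, so the class as a whole had nearly the same RPM in all 3 columns while the other classes summed higher in D862A. The median High transcript was 0.93-fold as deposited and had a relative log2 ratio of -1.83, with quartiles at -2.51 and -1.29. Only 6 of 238 were above the table median, against 50% of all transcripts. Of the other 232, 194 were more than 2-fold lower (81.5% of the class, against 26.3% of all transcripts), and 0 of the class were more than 2-fold higher. As deposited, 101 were higher and 137 lower.

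The Middle class stood between. Of 742 Middle transcripts, 725 passed the limit, with a median 1.70-fold as deposited and a relative log2 ratio of -0.96. More than 2-fold lower on the relative scale were 353 (48.7%), and 24 were more than 2-fold higher. As deposited 560 were higher and 165 lower, so the class was lower only against the bulk of the table.

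The Low class held 3316 transcripts past the limit out of 5488. Their median was 3.99-fold higher as deposited and 0.27 on the relative log2 scale, with 1010 (30.5%, against 26.7% of all) more than 2-fold higher and 625 (18.8%, against 26.3% of all) more than 2-fold lower. Of these 3316, 1175 passed through D862A alone, and the median under the untreated Armi limit was 0.34 over 1940 transcripts. The Zero class, which gave no piRNA read, had 306 of 5545 transcripts past the limit. Their relative median was 1.33, but 229 of the 306 passed through D862A alone and so had to be higher as deposited. With no limit on RPM the Zero median turned to -0.26. Only 19 Zero transcripts passed the untreated Armi limit, with a median of 1.40. How far the limit of 5 RPM sets the Zero median was not tested.

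As a share of reads on the table, High transcripts made up 45.2% (45.1 to 45.3) in WT and 23.5% (23.4 to 23.5) in D862A. Their share was 24.0% in R949A, 51.5% after control KD and 23.4% after Yb KD. Low transcripts went the other way, with 23.6% in WT, 41.8% in D862A, 40.8% in R949A, 21.5% after control KD and 41.8% after Yb KD. The Middle share was 30.7% in WT and 32.8% in D862A, and the Zero share 0.57% and 1.93%.

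**Figure D2:**
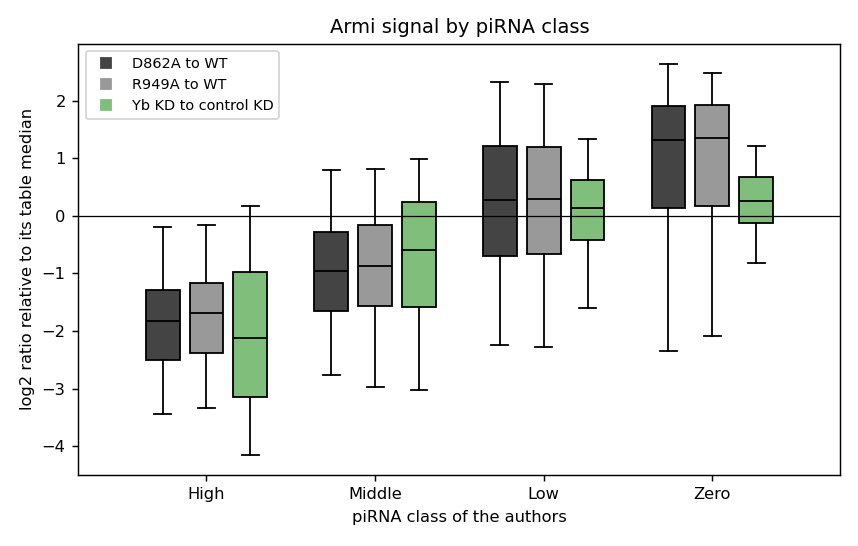
Relative log2 ratio (y axis) in each piRNA class for D862A to WT, R949A to WT and Yb KD to control KD, with boxes between the quartiles, lines for the median and whiskers from the 5th to the 95th percentile. Medians for D862A are -1.83 in High, -0.96 in Middle and 0.27 in Low; that of Zero, 1.33, comes from 306 transcripts of which 229 passed the limit through D862A alone, and D862A and R949A share the WT column.

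Within the classes, the ratio followed the piRNA level further. Transcripts with 100 to 500 RPM of Piwi-bound small RNA in untreated cells, 200 in number, had a relative median of -1.74, and 157 of them (78.5%) were more than 2-fold lower. The 38 transcripts above 500 RPM had a relative median of -2.43, and 37 of them (97.4%) were more than 2-fold lower. In this top group the median level was 691 RPM in WT and 296 RPM in D862A, so it was lower as deposited too. In the 100 to 500 RPM group the medians were 252 and 271 RPM. Under the untreated Armi limit, the medians from above 0 up to 5 RPM of Piwi RNA to above 500 RPM were 0.65, 0.19, -0.51, -1.27 and -1.95. Across all 4585 transcripts Spearman's rho between the relative ratio and the Piwi level was -0.50, and it was -0.39 within the High class alone. With the untreated Armi level in place of Piwi, rho was -0.48 over all and -0.40 in the High class. Both rho over all may be partly set by the limit of 5 RPM and were not computed under the untreated Armi limit. Transcripts that passed through D862A alone were 229 of 306 with no Piwi read and 1018 of 1945 above 0 and up to 5 RPM of Piwi RNA. In the High class they were 1 of 238. Levels of WT and untreated Armi were closer (rho 0.86) than those of D862A and untreated Armi (rho 0.71) or R949A and untreated Armi (rho 0.73). These values describe transcripts, which are not independent replicates.

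**Figure D3:**
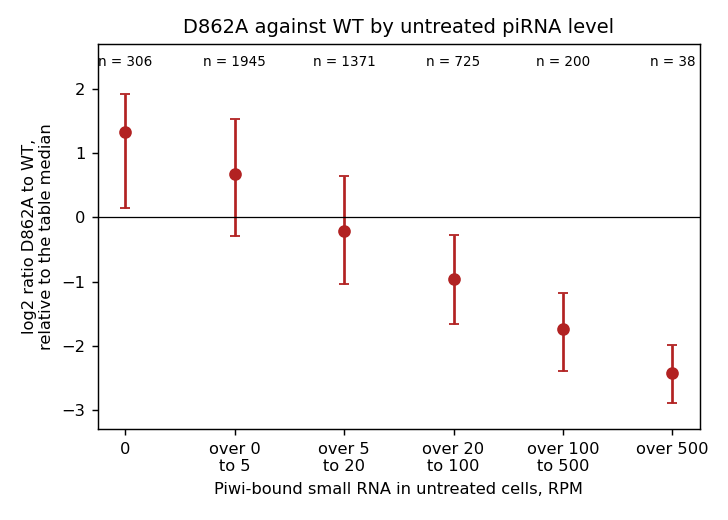
Median relative log2 ratio of D862A to WT (y axis), with bars between the quartiles, in 6 groups by Piwi-bound small RNA in untreated cells (x axis, RPM). The medians are -0.22 at 5 to 20 RPM, -0.96 at 20 to 100 RPM, -1.74 at 100 to 500 RPM and -2.43 above 500 RPM; in the 2 lowest groups 229 of 306 and 1018 of 1945 transcripts passed the limit through D862A alone.

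Several of the messages of lowest ratio give much piRNA: the Piwi level in untreated cells was 2275 RPM for CG32000, 1326 RPM for CG32791 and 1055 RPM for CG11360. Among transcripts averaging 100 RPM or more, the lowest ratio was that of CG32791 (DIP-alpha), a cell surface protein of the immunoglobulin family, with 314 RPM in WT, 56.7 RPM in D862A and 61.4 RPM in R949A. It was 5.53-fold lower in D862A (4.88 to 6.29), a relative log2 ratio of -4.17. Invadolysin, a metalloprotease, followed with 191, 38.1 and 57.4 RPM and a relative log2 ratio of -4.02. Both substituted proteins were far below WT on these messages. CG7564, the only Middle transcript among the 10 lowest, had 389, 85.3 and 97.0 RPM.

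Patr-1, an activator of mRNA decapping, had 1140 RPM in WT, 293 RPM in D862A and 367 RPM in R949A, 3.90-fold lower in D862A (3.67 to 4.13). CG11360 had 1839, 506 and 567 RPM, 3.63-fold lower (3.47 to 3.80). CG32000 (anne), a P-type ATPase family member, had 687, 154 and 136 RPM. These messages were also low without Yb, CG11360 at 1900 RPM after control KD and 226 RPM after Yb KD, and Patr-1 at 1209 and 219 RPM. The other 4 of the 10 lowest were sl (phospholipase C gamma), CG9940 (Nadsyn, NAD synthetase), ras (IMP dehydrogenase) and CG10171, with relative log2 ratios from -3.67 to -3.48.

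tj, which encodes a somatic gonad transcription factor and is the best known genic piRNA source of these cells, was nearer to its WT level. It had 3082 RPM in WT, 2618 RPM in D862A and 2691 RPM in R949A. The deposited level was 1.18-fold lower in D862A (1.15 to 1.21), and the relative log2 ratio was -1.96. After Yb KD tj stood at 1170 RPM against 4510 RPM after control KD. brat, a translational repressor, had 3647 RPM in WT, 2362 RPM in D862A and 2722 RPM in R949A, 1.54-fold lower in D862A (1.50 to 1.58). dm, the Drosophila Myc gene, had 3572, 2983 and 3134 RPM, 1.20-fold lower (1.17 to 1.23). In the knockdown columns brat had 3109 RPM after control KD and 520 RPM after Yb KD, and dm had 2709 and 834 RPM.

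The highest RPM, which are not divided by transcript length, belonged to a partly shared set of messages. Imp, an RNA-binding protein of messenger ribonucleoproteins, had 6399 RPM in WT, 7082 RPM in D862A and 7741 RPM in R949A, against 828 ± 23.3 RPM (SD, n = 2) for endogenous Armi in untreated cells. Hrb27C, an hnRNP protein, had 5268, 7228 and 8275 RPM, and sqd, another hnRNP protein, had 3885, 3557 and 4196 RPM. These High transcripts were among the highest of the WT column. As deposited, their D862A to WT ratios were 1.11, 1.37 and 0.92, while their relative log2 ratios were -1.58, -1.27 and -1.85. CG11505 (Larp4B), an RNA-binding protein, had 3192 and 3157 RPM in WT and D862A, nmo, a kinase, had 2805 and 2625 RPM, and CG32479 (Usp10), a deubiquitinase, had 2909 and 1773 RPM. D862A added messages to the top that WT held at lower levels, among them Hsp83 and Act5C, cytoplasmic actin, which rank beside Imp there.

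The message of Armi itself is a special case. armi had 5235 RPM in WT, 5157 RPM in D862A and 3951 RPM in R949A, but 144 RPM after control KD and 140 ± 10.4 RPM (SD, n = 2) in untreated cells. Cells with a transfected armi plasmid may hold RNA of it, whose part in these values was not tested. Its D862A to WT ratio, 0.99 (0.97 to 1.01), is therefore given without assigning it to endogenous or transfected armi.

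Among transcripts averaging 100 RPM or more, the 2 highest relative log2 ratios belonged to small heat shock protein messages with little signal in untreated Armi iCLIP. Hsp23, a small heat shock protein of the Zero class, had 48.7 RPM in WT, 2182 RPM in D862A and 1585 RPM in R949A, 44.8-fold higher in D862A (37.5 to 53.9). Hsp26, a second small heat shock protein, had 72.7, 2501 and 2162 RPM, 34.4-fold higher (29.8 to 40.0). Both stood at 11.3 ± 1.69 and 15.6 ± 0.33 RPM (SD, n = 2) in untreated cells. Hsp68, an inducible Hsp70 family member, had 24.8, 497 and 435 RPM.

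Next on the relative log2 scale were CG10103 (Ist1), an ESCRT-III factor, with 5.11 RPM in WT and 202 RPM in D862A, and Cyp18a1, the enzyme that inactivates ecdysone, with 7.07 and 247 RPM. These rest on 13 and 18 reads in WT. Without the pseudocount they were 39.5-fold (23.0 to 74.4) and 34.9-fold (22.0 to 59.1) higher, above the 34.4-fold of Hsp26. Ef1beta, a translation elongation factor subunit, had 10.2 and 270 RPM. RpL38 had 33.0 RPM in WT, 821 RPM in D862A and 629 RPM in R949A. CG5010 (Chchd2), RpL21, CG32230 (ND-MLRQ, a subunit of respiratory complex I) and ImpL3 (lactate dehydrogenase) completed the 10 largest relative log2 ratios at 100 RPM or more. Theirs ran from 2.72 to 2.75. None of these 10 was of the High class.

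**Figure D4:**
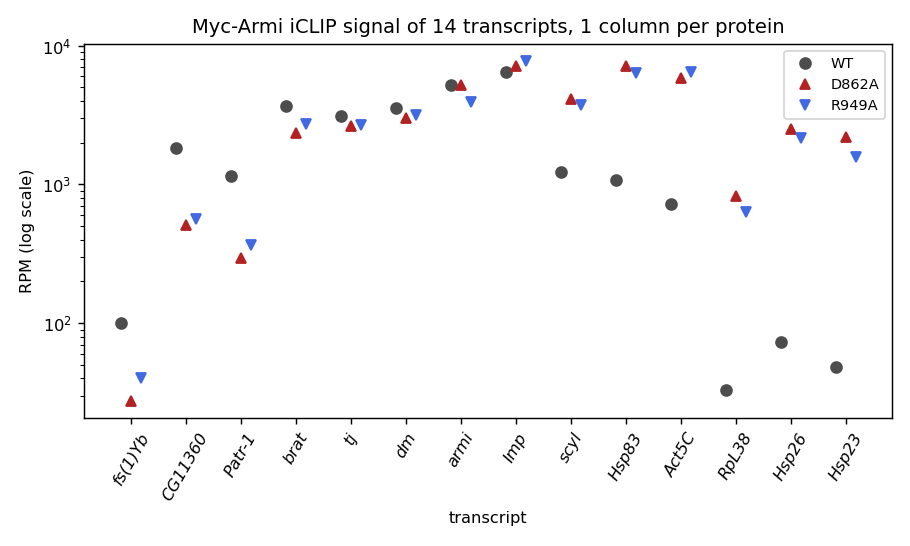
RPM (y axis, log scale) of 14 transcripts in WT, D862A and R949A Myc-Armi, 1 joined column each and hence no error bars. fs(1)Yb, CG11360 and Patr-1 lie below WT in both substituted proteins, tj, dm and Imp lie near it, and Act5C, RpL38, Hsp26 and Hsp23 lie above it.

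Of 16 lists, 7 had a relative median above 0 and 9 below, although all 16 medians were above 0 as deposited. The 77 cytosolic ribosomal protein messages found in the table all passed the limit and all were higher as deposited, summing to 3075 RPM in WT and 23794 RPM in D862A. Their median was 9.78-fold higher, a relative log2 ratio of 1.56, and 54 of 77 were more than 2-fold higher on the relative scale, against 26.7% of all transcripts, with 0 lower. RpL6 had 58.9 RPM in WT and 617 RPM in D862A, and RpS13 had 38.9 and 510 RPM. RpL41, the most abundant of them, had 372 and 1232 RPM, a ratio at the table median. In R949A the list's relative median was 1.26 and after Yb KD it was 0.87. The list's median locus span, introns included, was 1156 bases, against 3242 for all tested transcripts. The 882 tested transcripts from loci of up to 1500 bases had a relative median of 1.38, with 64.5% more than 2-fold higher. Of these, 582 passed through D862A alone. Under the untreated Armi limit the medians were 2.035 for the list and 1.47 for such loci. The part of locus span in the list's ratios was not tested.

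Mitochondrial ribosomal protein messages were too thinly read in WT for a statement on the group. Of 67 found, 48 passed the limit, 43 of them through D862A alone, and only 4 passed the untreated Armi limit. mRpL12 rested on 5 reads in WT (1.96 RPM) against 63.3 RPM in D862A. Among proteasome subunits 16 of 19 tested were more than 2-fold higher, against 26.7% of all transcripts, and 0 lower, with a relative median of 1.77. Of these 19, 5 passed through D862A alone. Under the untreated Armi limit 10 of 11 were more than 2-fold higher, against 669 of all 2926. The list's median locus span was 1414 bases, also short, and the part of span in its ratios was not tested. Rpn12, of the regulatory particle, had 6.29 RPM in WT, 184 RPM in D862A and 141 RPM in R949A, 29.2-fold higher in D862A (17.9 to 51.3). Rpt1, an ATPase of the same particle, had 11.4 and 138 RPM.

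Chaperone messages were higher as well. The 21 tested summed to 2688 RPM in WT and 22954 RPM in D862A, with a relative median of 1.57. On the relative scale 17 were more than 2-fold higher, against 26.7% of all transcripts, and 0 lower. Hsp83, the fly Hsp90 that also serves piRNA loading, had 1078 RPM in WT, 7095 RPM in D862A and 6288 RPM in R949A, 6.58-fold higher (6.33 to 6.84). Hsc70-4, the constitutive Hsp70, had 402 RPM in WT and 2733 RPM in D862A. CG7033 (CCT2), a chaperonin subunit, had 109 and 1179 RPM. The exception was the mitochondrial chaperone Hsc70-5, with 173 and 355 RPM, below the table median.

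Other lists had calls both ways. Of cytoskeletal messages, Act5C had 723 RPM in WT, 5884 RPM in D862A and 6481 RPM in R949A, 8.14-fold higher (7.77 to 8.54), and tsr, the actin-severing cofilin, had 27.1 and 374 RPM. The giant linker shot had 422 and 659 RPM, below the table median. Over the list, 8 of 25 were more than 2-fold higher and 3 lower on the relative scale. Of translation factors, 6 of 20 were more than 2-fold higher and 2 lower. Rack1, a ribosome-bound scaffold, had 37.3 RPM in WT and 531 RPM in D862A, whereas eIF4G2 had 1046 and 516 RPM, 2.03-fold lower as deposited. Of 8 nonsense-mediated decay messages, 3 were more than 2-fold higher and 2 lower, and of 13 Hippo pathway messages 3 were higher and 2 lower. The higher counts of these 4 lists are near the 26.7% of all transcripts or rest on few members, and nothing is read from them.

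Lists of RNA regulators differed among themselves. Of 24 translational repressor and mRNA decay messages, 11 were more than 2-fold lower on the relative scale, against 26.3% of all transcripts, and 3 higher, with a relative median of -0.86, though 18 of 24 were higher as deposited. Tis11, which directs decay of AU-rich messages, had 2165 RPM in WT, 1263 RPM in D862A and 1609 RPM in R949A. mei-P26, a relative of brat, had 1896, 1243 and 1277 RPM. Both are High transcripts, as are brat and Patr-1 of the same list. Of the 24, 7 were High and 10 Middle, classes that stood lower as a whole. Under the untreated Armi limit the list's median was -0.48 over 21, with 7 more than 2-fold lower, against 655 of all 2926. hnRNP and splicing messages had a relative median of -0.79, with 9 of 24 more than 2-fold lower and 3 higher, against 26.3% and 26.7% of all. Of these 24, 8 were High, and under the untreated Armi limit the median was -0.37 over 23. The RNA helicase list had 7 of 19 lower and 3 higher, with a relative median of -0.08, at the table median. Under the untreated Armi limit the helicase median was -0.67 over 16. Both lists rest on few members, and nothing is read from their counts.

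Epithelial polarity and adhesion messages had a relative median of -0.66, with 10 of 26 more than 2-fold lower, against 26.3% of all, and 2 higher. Under the untreated Armi limit the median was -0.34, and 4 of 23 were more than 2-fold lower, against 655 of all 2926. The list's share there was no larger than that of all. l(2)gl, a basolateral polarity protein and a High transcript, had 1333 RPM in WT, 649 RPM in D862A and 803 RPM in R949A, 2.05-fold lower as deposited (1.96 to 2.15). dlg1, its partner, had 794 and 1040 RPM, higher as deposited and lower only on the relative scale (-1.34). Follicle and somatic gonad messages had 7 of 29 lower, near the 26.3% of all transcripts, and 2 higher, with 26 of 29 higher as deposited. zfh1, a transcription factor of somatic gonad cells, had 889, 2518 and 2678 RPM, close to the table median at 2.83-fold, and chinmo, a zinc finger transcription factor, had 2451, 4523 and 4780 RPM.

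**Figure D5:**
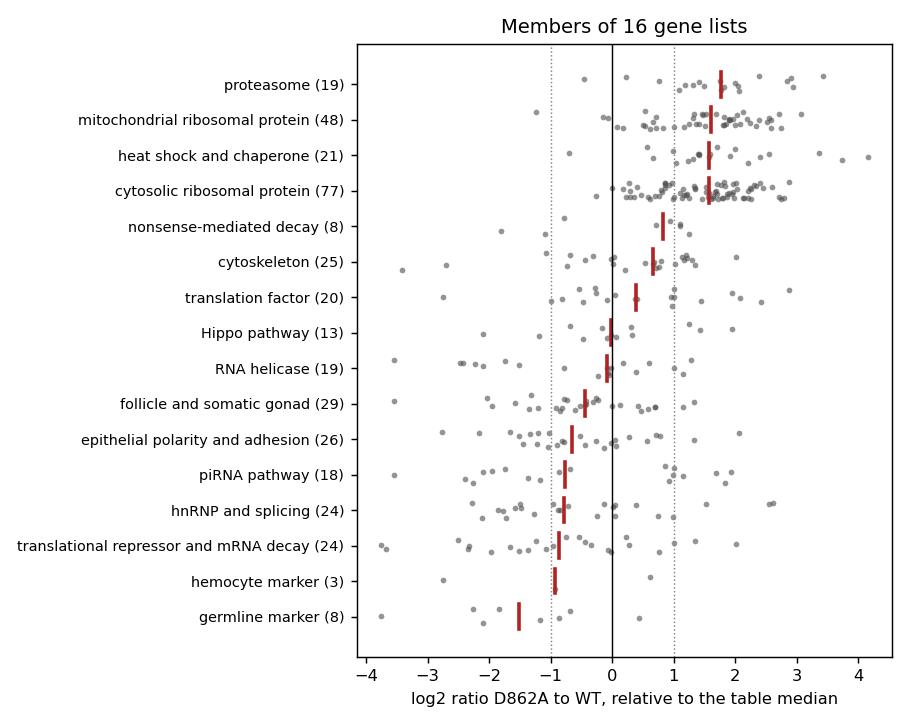
Relative log2 ratio of D862A to WT (x axis) of each tested member (grey points) of 16 gene lists, with the list median in red and the number of members in parentheses. Dotted lines mark 2-fold; no cytosolic ribosomal protein, proteasome or chaperone message lies beyond the lower one.

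Messages of the piRNA pathway itself, 18 of 23 in the table past the limit, ran in both directions. Their relative median was -0.78, with 8 more than 2-fold lower and 5 higher, against 26.3% and 26.7% of all transcripts. Of the 18, 3 passed the limit through D862A alone. Under the untreated Armi limit the median was -0.57 over 14 messages, with 5 more than 2-fold lower and 4 higher. The 8 lower include armi, whose signal is not assigned to endogenous or transfected armi. fs(1)Yb, which encodes Yb, had 100.2 RPM in WT, 27.7 RPM in D862A and 40.2 RPM in R949A, 3.61-fold lower in D862A (2.97 to 4.41) and the lowest of the list on the relative scale (-3.54). tud, a Tudor domain protein, had 362, 229 and 236 RPM, and spn-E, a helicase of the germline pathway, had 165, 127 and 148 RPM. Each of these was lower in both substituted proteins as deposited. piwi, the piRNA carrier, had 176 RPM in WT, 320 RPM in D862A and 380 RPM in R949A. It was 1.81-fold higher in D862A as deposited (1.64 to 2.01), with a relative log2 ratio of -0.87.

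Several smaller messages of the pathway were higher on both scales. wde, a partner of the histone methyltransferase encoded by egg, had 9.04 RPM in WT and 65.7 RPM in D862A. mael, needed for transcriptional silencing by Piwi, had 11.8 and 79.1 RPM, and shu, a co-chaperone of piRNA loading, had 6.68 and 81.0 RPM. zuc, the endonuclease, had 1.18 RPM in WT, which is 3 reads, and 24.7 RPM in D862A, so its ratio of 21.0 has an interval from 7.04 to 103. egg itself had 1 read in WT (0.39 RPM), 16.6 RPM in D862A and 3.68 RPM in R949A. Both zuc and egg were under 5 RPM in WT and passed the limit through D862A alone, so they had to be higher as deposited.

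Exceptions to the class pattern were few in the High class. The 5 of highest level above the table median were mirr, a homeobox factor, with 91.2 RPM in WT and 494 RPM in D862A, NK7.1, another homeobox gene, with 64.1 and 268 RPM, CG32486, CG4452 and CG10077. Their relative log2 ratios ran from 0.09 to 0.75, none of them past 2-fold. Low transcripts more than 2-fold lower included Cka, the scaffold of the STRIPAK complex, with 408 and 605 RPM, CkIIbeta, a casein kinase 2 subunit, with 369 and 490 RPM, and Mrtf, an actin-regulated cofactor, with 364 and 481 RPM. All 3 were higher as deposited, by 1.32-fold to 1.48-fold. Of Low transcripts more than 2-fold higher, cib, an actin monomer binder, had 183 and 1529 RPM, and ImpL2, a secreted insulin-binding protein, had 119 and 999 RPM. Among Zero transcripts CG32547 was lower on both scales, at 36.5 RPM in WT and 6.38 RPM in D862A.

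The other substitution gave much the same picture. R949A to WT had a table median of 3.19-fold over 4473 transcripts, with 1176 (26.3%) more than 2-fold higher and 1132 (25.3%) lower on its own relative scale. Its class medians were -1.69, -0.88, 0.30 and 1.36 from High to Zero. Both comparisons use the WT column, so no overlap between them is given. Set directly against each other, D862A and R949A had a table median of 1.02-fold over 4963 transcripts and an SD of 0.50, with 173 (3.49%) more than 2-fold higher in D862A and 101 (2.04%) lower. Among transcripts averaging 100 RPM or more over the 3 columns, RpL14 had 319 RPM in D862A and 179 RPM in R949A, a ratio of 1.79 (1.66 to 1.93), and Arc1, a capsid-forming protein, had 420 and 244 RPM. RpL7, RpS3 and Cyp18a1 were the other 3 with the largest gap in that direction. In the other, dos, an adaptor of receptor tyrosine kinases, had 159 RPM in D862A and 241 RPM in R949A, and CG12065 had 386 and 562 RPM, followed by vlc, CG32758 and fl(2)d. With 1 joined column each, these gaps were not tested.

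Yb KD to control KD, which shares no library with the Myc-Armi columns, had 384 of 4039 transcripts (9.51%) more than 2-fold higher and 800 (19.8%) lower on its relative scale. Its class medians, from High to Zero, were -2.12, -0.59, 0.14 and 0.26. The relative ratios of D862A and of Yb KD had a rho of 0.43 over the 3806 transcripts in both sets. Within the High class rho was 0.68, within Middle 0.52, within Low 0.26 and within Zero 0.17. Of the 3806, 1121 were more than 2-fold lower in D862A. Of these, 480 (42.8%) were lower after Yb KD, against 19.9% of the 3806, and 58 were more than 2-fold higher. The 480 were 63.5% of the 756 lower after Yb KD, against 29.5% of the 3806 lower in D862A, and 159 were High. Of the 774 more than 2-fold higher in D862A, 99 (12.8%) were higher after Yb KD, against 9.49% of the 3806, and 34 were lower. The 99 were 27.4% of the 361 higher after Yb KD, against 20.3% of the 3806 higher in D862A. The shares of higher transcripts are not far from those of all 3806, and nothing is read from them.

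Single messages differed between these comparisons. ex, an upstream Hippo pathway protein, had 55.4 RPM in WT and 174 RPM in D862A, near the table median (-0.09), but 2.30 RPM after control KD and 260 RPM after Yb KD. Hsp23 had 57.4 RPM after Yb KD, a relative log2 ratio of 0.20 to control KD, and 3.73 for D862A to WT. kug, a cadherin named after its values were seen, had 314 RPM in WT and 103 RPM in D862A, but 180 RPM after control KD and 356 RPM after Yb KD. The differences between the D862A and Yb KD ratios were not tested.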

How the data were processed

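RNA bound by Myc-Armi was deposited by the authors as RPM, 1 value per FlyBase transcript. Per the submitters' processing notes, cutadapt, STAR and dm6 were used, and how reads were counted, duplicates removed and the 2 libraries joined is not given in the sources used here. Per the labels the tagged proteins were recovered with an anti-Myc antibody, while the protocol text of the same libraries names an anti-Armi antibody. All values were whole multiples of 1 step per column (tolerance 0.1 read), which gave the reads. A column's 3-read floor was 1.18 RPM in WT and 0.478 RPM in D862A.

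Groups came from sample titles. Of 12120 deposited rows, 107 repeated ones were dropped. The RefSeq gene table held 10221 symbols as current names and 1782 as older ones, and 10 were not found. Loci in the table follow another assembly than dm6, so positions are not given. Reads of overlapping or near-identical genes cannot be assigned with certainty, and fewer transcripts of a gene and less binding per transcript cannot be told apart. Log2 ratios used a pseudocount of 1 RPM. Intervals are exact conditional binomial for ratios and exact binomial for shares.

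The members and lists were chosen with earlier results of these data known. Named were the 10 highest and 10 lowest ratios among transcripts averaging 100 RPM or more, the 3 highest of each list, the 10 highest of each column, the 5 highest of High on each side of the median and of Low and Zero past 2-fold each way, the 5 largest gaps to R949A each way, and armi, piwi, fs(1)Yb, zuc, tj, brat, dm and ex. Further members of the 16 lists and kug were named after their values were seen. The scripts were tested on simulated data. Python 3.11.15, numpy 2.4.6, pandas 2.3.3, scipy 1.17.1, matplotlib 3.10.9 and, in R 4.3.3, edgeR 4.0.16 for TMM factors were used.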

Additional observations from a re-analysis of the deposited data

How the results depend on the processing

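No paired analysis was possible because the deposited table joins the 2 libraries of each condition in 1 column, which likewise leaves no library to omit and no limma fit to run. Keeping 1 transcript per gene symbol changed nothing, since no symbol repeats.

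The table median log2 ratio of 1.73 fell to 0.87 when RPM were rescaled to the reads of the table, and to 1.25 over the 2926 transcripts with at least 5 RPM in untreated Armi iCLIP, a limit added after the data were seen. The 1224 transcripts more than 2-fold higher became 670 at a pseudocount of 5 RPM, 689 at a limit of 20 RPM (2685 transcripts tested), 3101 as deposited, 374 at 4-fold and 669 under the untreated Armi limit. The 1208 lower became 1835 with no limit (6841 tested), 616 at 20 RPM, 194 as deposited, 445 at 4-fold and 655 under the untreated Armi limit. Fewer transcripts were tested under the stricter limits. For the other moves the cause was not tested, except that leaving out the centring adds the table median by construction.

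The High median of -1.83 stayed below 0 throughout, at -1.50 with a pseudocount of 5 RPM, -1.56 with no limit and at 20 RPM, -0.11 as deposited, -1.65 with TMM and -1.35 under the untreated Armi limit. The Middle median of -0.96 became -0.67, -0.72, -0.66 and -0.51 at a pseudocount of 5 RPM, no limit, 20 RPM and the untreated Armi limit, and turned to 0.77 as deposited. The Low median rose to 2.00 and the Zero median to 3.05 as deposited, and Zero turned to -0.26 with no limit.

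Lists with a median above the centre rose from 7 to 16 of 16 as deposited, where epithelial polarity became 1.07, follicle 1.28, germline 0.21, hemocyte 0.80, hnRNP 0.94, piRNA pathway 0.95, repressor and decay 0.87, Hippo 1.71 and RNA helicase 1.64. Near 0, the Hippo median turned to 0.17 at a pseudocount of 5 RPM, 0.22 with no limit, 0.28 at 20 RPM, 0.17 with TMM and 0.50 under the untreated Armi limit, the helicase median to 0.012 with no limit and 0.10 with TMM, and the follicle median to 0.038 under the untreated Armi limit. Of 108 single transcripts, 17 turned as deposited, to log2 ratios of 0.13 (CG5059), 0.15 (Imp), 0.22 (Dcr-2), 0.32 (Fur1), 0.36 (AGO1), 0.39 (dlg1), 0.40 (Mrtf), 0.41 (CkIIbeta), 0.44 (CycG), 0.46 (Hrb27C), 0.48 (mRpL21), 0.53 (lid), 0.57 (Cka), 0.63 (Smg5), 0.70 (Bin1), 0.71 (CG11261) and 0.72 (pAbp). Depth limits the WT column most, where 108 transcripts had 0 reads.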

Other observations

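The ratio also varied with the span of the locus, introns included. The 882 tested transcripts from loci of up to 1500 bases had a relative median log2 ratio of 1.38, but 582 of them were under 5 RPM in WT and passed the limit through D862A alone. The median was 0.51 from 1500 to 2500 bases, -0.22 from 2500 to 4500, -0.63 from 4500 to 10000 and -0.70 beyond. Under a limit of 5 RPM in untreated Armi iCLIP, added after the data were seen, the 5 medians were 1.47 (277 transcripts), 0.49, 0.00, -0.30 and -0.31. Within the Low class alone, at the limit of 5 RPM over WT and D862A, the 5 medians were 1.36, 0.70, 0.03, -0.21 and -0.32. Of the 3316 Low transcripts there, 1175 passed through D862A alone and had to be higher in D862A. At the same limit, Spearman's rho with locus span was 0.00 within the High class and -0.43 within the Low class. After Yb KD the medians of the 5 span groups over all classes were 0.11, -0.04, -0.06, -0.04 and 0.04.

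Transcripts of the small chromosome 4, largely heterochromatic, stood low. The 46 tested had a relative median of -1.34, with 26 more than 2-fold lower and 2 higher, against 26.3% and 26.7% of all transcripts, and 27 of them were High or Middle. Compared within a class, the 7 High transcripts of chromosome 4 had a median of -2.27 against -1.83 elsewhere, the 20 Middle ones -1.44 against -0.95, and the 17 Low ones -0.32 against 0.28.

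Below 100 RPM the ratios reached further. CG8701 had 32.6 RPM in WT, 0.638 RPM in D862A and 2.28 RPM in R949A, 51.2-fold lower in D862A (19.2 to 192), with 33.0 RPM after control KD and 4.72 RPM after Yb KD. CG12825 had 15.7 RPM in WT and 0 reads in D862A, at least 32.9-fold lower against a floor of 3 reads. At the other end Hsp27, another small heat shock protein, had 2 reads (0.786 RPM) in WT and 104 RPM in D862A, a ratio of 133 (36.6 to 1099). Roe1, a nucleotide exchange factor of mitochondrial Hsp70, had 0 reads in WT and 42.6 RPM in D862A, at least 36.1-fold higher against a floor of 3 reads. Of the 374 transcripts (8.16%) more than 4-fold higher, 307 were Low, 64 Zero, 3 Middle and 0 High, and 311 of them passed the limit of 5 RPM through D862A alone. Of the 445 (9.71%) more than 4-fold lower, 100 were High, 117 Middle, 206 Low and 22 Zero, and 89 of them passed through WT alone. Of all tested transcripts 72.3% were Low, 15.8% Middle, 6.67% Zero and 5.19% High.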
